A study of Mus musculus with 24 samples.

Results

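The genes described here are 10 genes of antigen presentation by major histocompatibility complex (MHC) class II: H2-Aa, H2-Ab1, H2-Eb1, Cd74, H2-DMa, H2-DMb1, Ciita, Ctss, Ifi30 and Cd86. They were a named list, selected on their log2 CPM (counts scaled to a library of 1000000) in these same livers across all 4 groups of each table, so their levels and fold changes are a description and no test is drawn from them. All 10 of the 10 were found among the 21755 genes of the p16-3MR table, and 9 of the 10 among the 12643 labels of the wild-type table, where the label of Ctss is shared with other symbols and is not reported. RNA was measured by Smart-3SEQ, a method that sequences the 3′ ends of transcripts, in the livers of 24 mice, 3 per group. The p16-3MR mice carry a transgene in which the p16Ink4a promoter drives a viral thymidine kinase, which turns ganciclovir (GCV) into a toxic product in p16-expressing cells. Females and males of this genotype received GCV or vehicle (VEH, pH11 water), starting at an age of 16 to 18 months. Injections were given on 5 consecutive days each month, at a dose that the labels give as 150 mg/kg and the study's methods give as lower. The livers of these mice were taken at an older age, after repeated monthly treatment. Wild-type females and males received GCV or VEH monthly from 6 months of age, and their livers were taken after 3 months. The p16-3MR libraries are labelled batch 1 and the wild-type libraries batch 2, and the mice differ in age, so genotype, age and batch cannot be told apart and no test was made between the 2 tables.

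MHC class II molecules show peptides from engulfed material to CD4+ T cells. An alpha and a beta chain (H2-Aa with H2-Ab1, and the E beta chain H2-Eb1) are assembled on the invariant chain Cd74, which blocks the groove and directs the complex to endosomes. There the protease cathepsin S (Ctss) trims the invariant chain, the thiol reductase GILT (Ifi30) opens disulphide bonds of the antigen, and the H2-DM dimer (H2-DMa with H2-DMb1) exchanges the remaining fragment for a peptide. The transactivator Ciita switches on the class II genes together with factors bound at the X and Y boxes of their promoters, and Cd86 is a co-stimulatory ligand on the same cells. In liver these genes are used mainly by Kupffer cells, other macrophages, dendritic cells and B cells, to a lesser degree by sinusoidal endothelium, and little by hepatocytes.

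Coordinates follow GENCODE M21 on GRCm38. H2-DMa (chr17:34119541-34139101), H2-DMb1 (chr17:34153072-34160230), H2-Ab1 (chr17:34257689-34269419), H2-Aa (chr17:34282744-34287823) and H2-Eb1 (chr17:34305867-34316674) form one stretch of chromosome 17, with H2-Aa on the minus strand. Ciita (chr16:10480059-10528418) and Cd86 (chr16:36603869-36666081) lie on chromosome 16, Ctss (chr3:95526786-95556403) on chromosome 3 and Ifi30 (chr8:70762774-70766663) on chromosome 8. H2-DMa overlaps Brd2, among other genes, on the other strand, Ciita overlaps Dexi on the other strand, and H2-Eb1 overlaps an antisense gene. Ifi30 overlaps 6330537M06Rik on the other strand. On their own strand, H2-DMa overlaps CR974462.3, Ctss overlaps the pseudogene Hmgb1-ps5 and Cd74 overlaps Mir5107. Whether the counting used strand is not given in the sources used here. H2-DMb1 has the near-identical paralog H2-DMb2, so the split of reads between them is uncertain.

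Promoter sequences from RefSeq (GRCm38.p6), running from 250 bases before to 50 after the gene start, matched 6 of the 10 genes. H2-Eb1 and H2-DMb1 are shown because they held both the X and the Y box core, the letters that class II regulators are known to read, and H2-Aa because it held the Y box core at a like distance from its start. The capitals mark the Y box core GATTGG, the X box core AACNGATG and, in H2-Aa, the cyclic AMP response element TGACGTCA, each searched on both strands, where CCAATC is the Y box core read on the other strand. The last motif was added after the sequences had been read. The promoters are H2-Eb1 (chr17:34305617-34305916, plus strand), H2-DMb1 (chr17:34152941-34153240, plus strand) and H2-Aa (chr17:34287774-34288073, minus strand), each written 5′ to 3′.
H2-Eb1: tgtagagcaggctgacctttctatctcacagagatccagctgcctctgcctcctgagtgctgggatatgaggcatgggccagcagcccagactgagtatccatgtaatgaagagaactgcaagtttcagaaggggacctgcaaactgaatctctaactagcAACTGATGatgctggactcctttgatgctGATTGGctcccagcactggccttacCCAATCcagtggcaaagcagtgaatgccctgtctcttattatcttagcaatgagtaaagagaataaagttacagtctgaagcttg
H2-DMb1: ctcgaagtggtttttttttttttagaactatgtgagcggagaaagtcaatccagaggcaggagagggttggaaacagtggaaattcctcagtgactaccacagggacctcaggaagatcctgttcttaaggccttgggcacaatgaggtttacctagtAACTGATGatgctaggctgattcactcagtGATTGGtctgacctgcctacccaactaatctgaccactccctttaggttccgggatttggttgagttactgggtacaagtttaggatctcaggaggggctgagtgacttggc
H2-Aa: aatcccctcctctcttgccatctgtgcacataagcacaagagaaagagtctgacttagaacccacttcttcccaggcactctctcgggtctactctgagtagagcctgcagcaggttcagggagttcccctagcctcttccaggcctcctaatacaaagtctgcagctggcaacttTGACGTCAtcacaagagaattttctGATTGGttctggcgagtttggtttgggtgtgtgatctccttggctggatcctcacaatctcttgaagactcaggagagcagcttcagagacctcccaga
The X and Y box cores stood 21 bases apart in H2-Eb1, starting at -89 and -60 from the gene start, and 22 bases apart in H2-DMb1, starting at -92 and -62. Positions count from the RefSeq gene start, which for H2-DMb1 and H2-DMa lies downstream of the GENCODE start given above, so both cores of H2-DMb1 fall within the GENCODE gene. In H2-Aa the Y box core started at -49 and the response element at -74, and the X box core letters did not match within this window. Over all 32851 promoters of this length, 16.1% held the Y box core, 2.32% held the X box core, 0.335% held both and 1.79% held the response element. The other promoters matched 1 core in Ctss (X box core at -207) and 1 in one of the 2 H2-DMa starts (Y box core at -199), and none in Ifi30. A match describes these letters only.

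The p16-3MR libraries held 5005760 to 7160172 counts each and the wild-type libraries 3084517 to 5667904. The female GCV liver of mouse 33 stood apart from the other p16-3MR livers. Mitochondrial transcripts took 64.0% of its counts, against 12.3% to 22.4% elsewhere, and 13409 genes were detected. Male GCV mouse 32 and male VEH mouse 24 had the lowest summed CPM of the 6 hepatocyte markers (24376 and 38444, against 73592 to 154881 elsewhere). Cdkn2a, the gene of p16, had 0 to 7 counts per p16-3MR liver.

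In p16-3MR females, class II chain RNA was lower after GCV in every liver than in any VEH liver. H2-Ab1, the A beta chain, measured 21.6, 13.1 and 23.98 CPM in the GCV livers (mice 31, 33 and 35) and 45.2, 63.7 and 218 CPM in the VEH livers (mice 27, 28 and 29). H2-Aa, the A alpha chain, measured 17.9, 7.72 and 15.3 CPM after GCV and 27.9, 36.3 and 154 CPM after VEH. H2-Eb1 measured 23.3, 13.1 and 22.5 CPM against 28.6, 39.6 and 163 CPM. None of these groups overlapped, VEH mouse 29 was the highest in each, and GCV mouse 33 the lowest. The log2 fold changes (GCV minus VEH) were -2.46 (SE 0.88) for H2-Ab1, -2.38 (SE 1.01) for H2-Aa and -1.95 (SE 0.94) for H2-Eb1.

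Cd74, the invariant chain, measured 61.5, 60.2 and 75.3 CPM in the female GCV livers and 109.5, 159 and 666 CPM in the female VEH livers, a log2 fold change of -2.24 (SE 0.99). H2-DMa measured 2.31, 3.09 and 2.85 CPM against 3.35, 7.96 and 21.02 CPM, a log2 fold change of -1.99 (SE 1.08). H2-DMb1, the other chain of the peptide exchanger, measured 1.74, 0.772 and 1.17 CPM against 3.49, 6.22 and 23.8 CPM, a log2 fold change of -3.06 (SE 1.22). The level in mouse 33 is 1 count. Ciita measured 1.74, 1.54 and 2.35 CPM against 4.29, 4.63 and 18.6 CPM, a log2 fold change of -2.23 (SE 0.89). The treatments were separate for all 4 of these genes. For H2-DMa the gap, from 3.09 CPM in mouse 33 to 3.35 CPM in VEH mouse 27, was smaller than 1 count of mouse 33 (0.772 CPM).

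Ctss measured 45.9, 19.3 and 22.3 CPM in the female GCV livers and 52.3, 129 and 183 CPM in the VEH livers, a log2 fold change of -2.05 (SE 1.15). Cd86 measured 4.43, 4.63 and 2.35 CPM against 5.23, 10.7 and 13.7 CPM, a log2 fold change of -1.42 (SE 1.09). The treatments did not overlap for either gene. For Cd86 the gap, from 4.63 CPM in mouse 33 to 5.23 CPM in VEH mouse 27, was again smaller than 1 count of mouse 33. Ifi30 was the exception among the 10, at 14.3, 17.0 and 12.2 CPM against 12.9, 36.2 and 46.4 CPM (log2 fold change -1.15, SE 0.78), since VEH mouse 27 lay below 2 of the GCV livers.

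**Figure D1:**
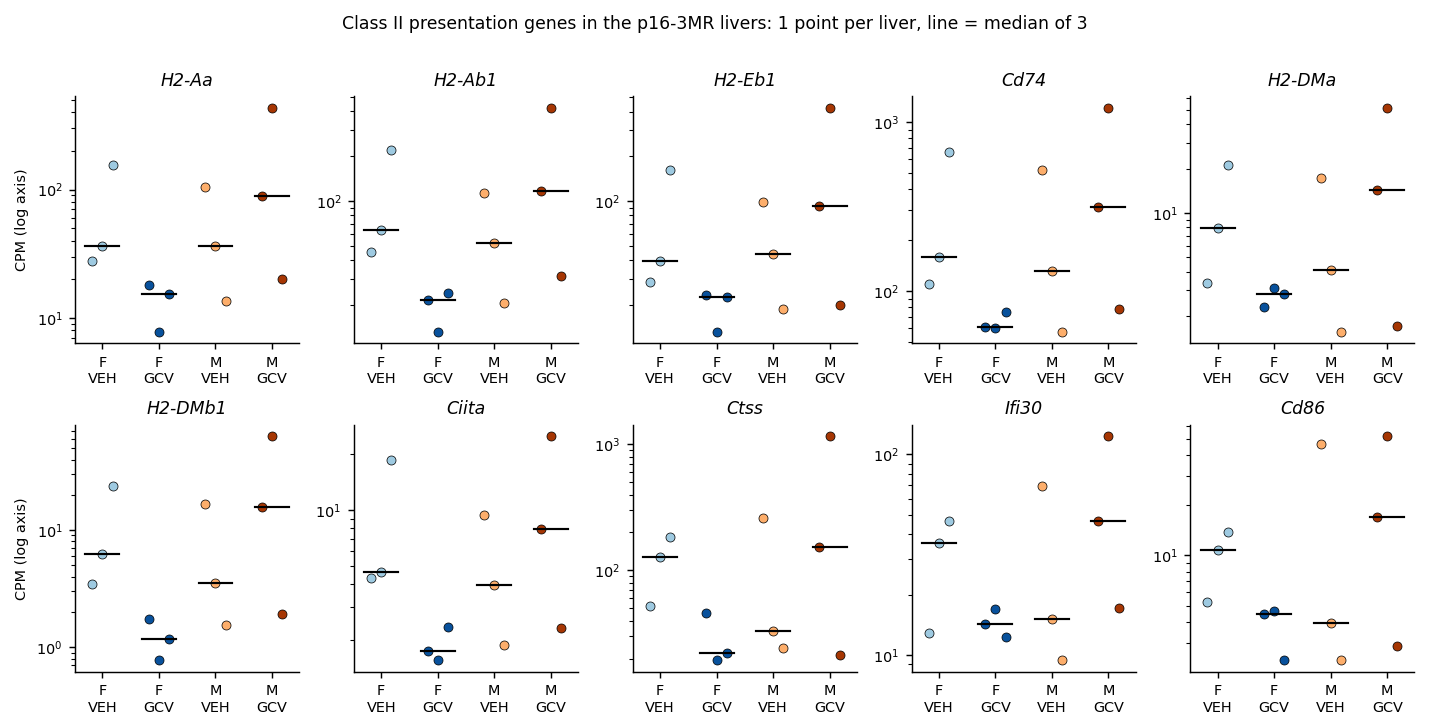
CPM on log axes of the 10 class II presentation genes in the p16-3MR livers, 1 panel per gene with its own axis, 1 point per liver by sex and treatment, with a line at the median of 3. Every female GCV point sits below every female VEH point in 9 of the 10 panels (not Ifi30), and the male points of both treatments overlap in all 10.

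Over the list, every GCV liver lay below every VEH liver in 9 of 10 genes, while 7.35% of all 21755 genes had that pattern. For H2-DMa and Cd86 it rested on a gap of less than 1 count in GCV mouse 33. The median log2 fold change of the 10 genes was -2.14, against 0 over all genes. None of the 10 was called at an adjusted p under 0.05 by edgeR's quasi-likelihood test, and neither was any of the 21755 genes (0%). An unadjusted p under 0.05 was found for 5 of the 10 and 1603 of all genes. DESeq2 called 0 of the 10 and 90 of the 12847 genes to which it gave an adjusted p. In a fit to the 6 female livers alone, an unadjusted p under 0.05 was found for 10 of the 10 and 1599 of 20872 genes. It was found for 0 of the 10 and 933 of all genes without VEH mouse 29, and for 0 and 998 without GCV mouse 33. The genes were selected on these same values, so nothing is read from the counts, here or in the contrasts that follow. Without VEH mouse 29 the median was -1.19, and without GCV mouse 33 it was -2.16, with all 10 values below 0 in both.

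In p16-3MR males the same genes spread widely within each treatment and the treatments overlapped in all 10, where 6.4% of all genes did not overlap in either direction. H2-Ab1 measured 116, 422 and 31.1 CPM in the GCV livers (mice 30, 32 and 34) and 112, 52.1 and 20.6 CPM in the VEH livers (mice 24, 25 and 26). Cd74 measured 315, 1213 and 78.4 CPM against 518, 131 and 57.0 CPM. Ctss measured 153, 1166 and 21.5 CPM against 260.3, 33.04 and 24.4 CPM. GCV mouse 32 was the highest of all 12 p16-3MR livers for each of the 10 genes, and mouse 34 of the same group was below at least 2 of the 3 VEH livers for the 3 genes given here.

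The male log2 fold changes ran from 0.43 (SE 0.98) for Cd86 to 2.08 (SE 1.14) for Ctss, with a median of 1.59 against 0.04 over all genes. None of the 10 was called (0% of all genes). No member and 416 of all genes had an unadjusted p under 0.05, and DESeq2 called none of the 10 and 5 of all genes. By limma-voom with sample quality weights, 8 of the 10 and 5018 of all genes had an unadjusted p under 0.05. That fit called none of the 10 and 145 of all genes. The direction rests on 1 liver. Without GCV mouse 32 the median was -0.01, with 5 genes above 0 and 5 below, and without VEH mouse 24 it was 2.74.

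**Figure D2:**
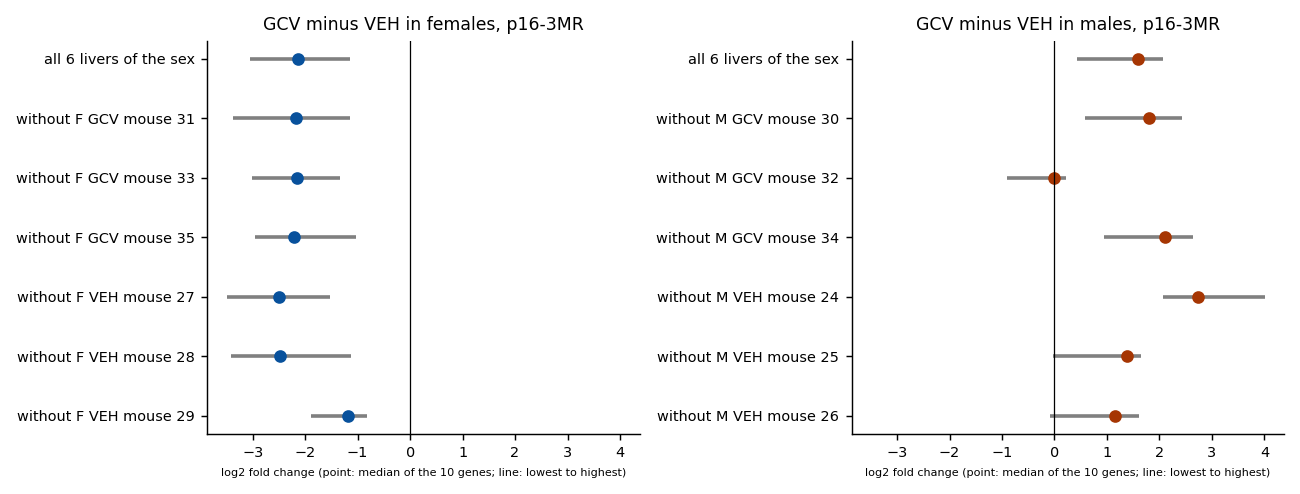
Log2 fold change (GCV minus VEH) in p16-3MR females, left, and males, right, with all livers and with each liver of that sex left out, where the point is the median of the 10 genes and the line runs from the lowest to the highest gene. The female lines all stay below 0, with the smallest median (-1.19) without VEH mouse 29, and the male median moves to -0.01 without GCV mouse 32.

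The female log2 fold change minus the male one was below 0 for all 10 genes, with a median of -3.63 against -0.04 over all genes. Its size was largest for H2-DMb1 (-4.94, SE 1.60) and smallest for Cd86 (-1.86, SE 1.46). None of the 10 was called (0% of all genes). An unadjusted p under 0.05 was found for 8 of the 10 and 822 of all genes, and DESeq2 called none of the 10 and 3 of all genes. Without male GCV mouse 32 the median was -2.06, and without male VEH mouse 24 it was -4.91. These values use the same 12 livers as the female and male comparisons and are not independent of them.

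Averaged over both treatments, the 10 genes were lower in females than in males by a median log2 fold change of -1.32, against -0.07 over all genes. None of the 10 was called, while 0.303% of all genes were. An unadjusted p under 0.05 was found for 4 of the 10 and 1534 of all genes. DESeq2 called none of the 10 and 196 of the 15358 genes to which it gave an adjusted p. Among VEH livers alone 9 of the 10 were higher in females, with a median of 0.49, and the exception was Cd86 (-0.85). Leaving out male GCV mouse 32 brought the averaged difference to -0.64, and leaving out male VEH mouse 24 to -0.77.

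The 10 genes moved together from liver to liver. Across the 12 p16-3MR livers, Pearson's r between pairs of the 10 genes (45 pairs, log2 CPM) had a median of 0.95 and ran from 0.855 for H2-Ab1 with Cd86 to 0.993 for H2-Aa with H2-Eb1. With the group means subtracted the median was 0.96. These points share libraries, so r is a description. The ratio of H2-Aa to H2-Ab1 within a liver stayed between 0.57 and 1.03 while H2-Aa itself ranged from 7.72 to 436 CPM, a 56.4-fold range. Its log2 ratio had an SD of 0.27, against an SD of 1.51 for log2 H2-Ab1. The ratio of Cd74 to H2-Ab1 ran from 2.42 to 4.62, and that of Ciita to H2-Ab1 from 0.0594 to 0.118. The log2 ratios of H2-Aa, H2-Eb1, Cd74 and Ciita to H2-Ab1 had SDs of 0.26 to 0.32 in livers that differed many-fold in level. The ratios of the H2-DM chains were looser, with an SD of 0.55 for H2-DMa to H2-Ab1 (0.0556 to 0.235) and 0.68 for H2-DMb1 to H2-DMa (0.25 to 1.23), the lowest of the latter resting on 1 count.

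Markers of the cells that use class II varied with these genes. The 6 Kupffer cell markers (Clec4f, Vsig4, Timd4, Cd5l, Marco and Folr2), all detected, summed to 105 to 323 CPM in the female GCV livers, 279 to 899 CPM in the female VEH livers, 211 to 2728 CPM in the male GCV livers and 146 to 1611 CPM in the male VEH livers. The 7 monocyte and macrophage markers summed to 80.7 to 169.7 CPM, 170.0 to 457 CPM, 129 to 2190 CPM and 93.2 to 1450 CPM in the same order of groups. Ptprc, the common leukocyte antigen CD45, measured 12.2 to 21.6 CPM, 18.0 to 69.8 CPM, 19.8 to 156 CPM and 11.1 to 93.1 CPM. The 8 dendritic cell markers were low, at 7.21 to 13.1 CPM, 9.65 to 20.1 CPM, 4.61 to 23.2 CPM and 5.002 to 19.8 CPM, and Siglech had at most 3 counts in every liver. T cell markers (6 of 6) summed to 2.12 to 6.95 CPM, 6.70 to 64.6 CPM, 14.4 to 98.7 CPM and 2.97 to 130.8 CPM. The 8 B cell markers ran differently, with 33.2 to 159 CPM, 93.9 to 213 CPM, 45.0 to 546.7 CPM and 60.4 to 136 CPM, and their highest sum was in male GCV mouse 34, where the class II genes were low.

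Across the 12 p16-3MR livers, r between the mean log2 CPM of H2-Aa, H2-Ab1, H2-Eb1 and Cd74 (the class II core) and the log2 summed markers was 0.90 for monocytes and macrophages, 0.89 for Kupffer cells, 0.89 for Ptprc, 0.86 for T cells, 0.79 for dendritic cells, 0.65 for sinusoidal endothelium, -0.12 for B cells and -0.78 for hepatocytes. The summed core per CPM of Ptprc was 4.36 to 11.2 in the female GCV livers and 5.04 to 17.2 in the female VEH livers, so the groups that were separate for the core (94.2 to 137 against 211 to 1202 CPM) overlapped once divided by Ptprc. Per CPM of the Kupffer cell markers the core was 0.386 to 1.30 against 0.332 to 1.67, which overlapped too. The part of these cell types in the class II values was not tested, and in bulk liver fewer class II cells and less class II RNA per cell cannot be told apart.

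**Figure D3:**
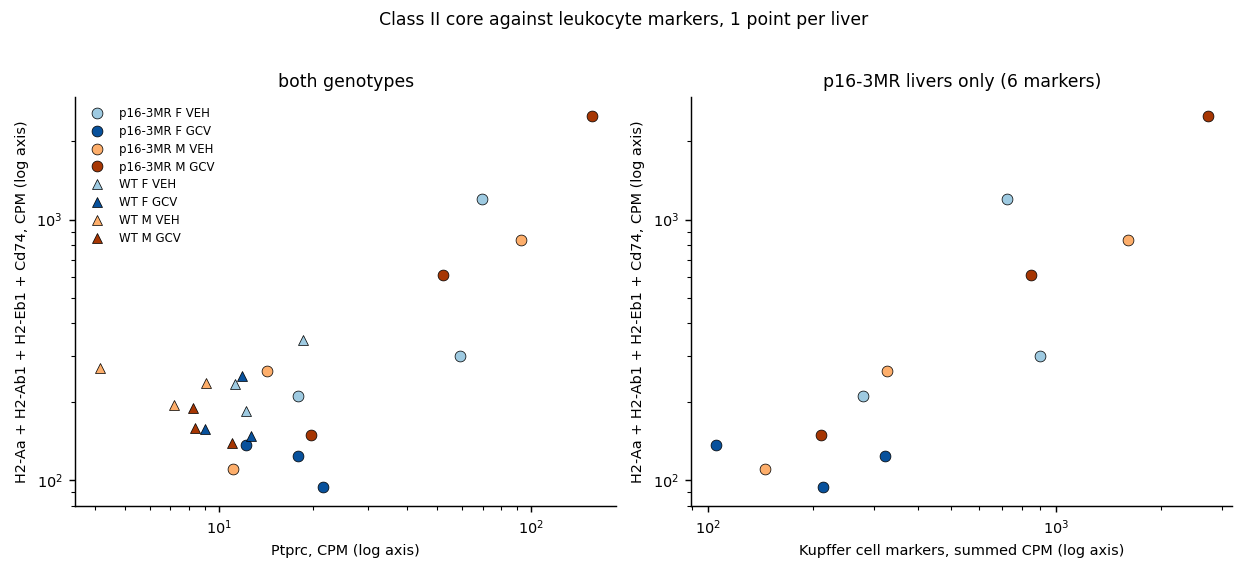
Summed CPM of H2-Aa, H2-Ab1, H2-Eb1 and Cd74 against Ptprc (left, both genotypes) and against the summed Kupffer cell markers (right, p16-3MR only), on log axes with 1 point per liver, circles for p16-3MR and triangles for wild-type. The 3 female GCV circles lie low on the vertical axis (core 94.2 to 137 CPM), at 12.2 to 21.6 CPM of Ptprc and 105 to 323 CPM of the Kupffer cell markers, and male GCV mouse 32 lies highest on every axis (core 2497 CPM, Ptprc 156 CPM).

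By the likeness rule, the genes closest to the class II core over the 12 p16-3MR livers, among 9363 other genes with a mean of at least 5 CPM, were Cdc42se2 (r = 0.963), Oxct1 (0.956), Elf4 (0.955), Ppp1r18 (0.952), Renbp (0.951), Ptpn6 (0.950), Vsig4 (0.949) and Unc93b1 (0.946). Ptpn6 encodes the phosphatase SHP-1, Vsig4 a Kupffer cell complement receptor and Unc93b1 a carrier of endosomal Toll-like receptors. With group means subtracted, the 8 closest were Igsf8 (0.970), Cdc42se2 (0.969), Vamp4 (0.957), Grk5 (0.950), Tmsb4x (0.947), Rp2 (0.945), Fam49b (0.942) and Otulinl (0.940), of which 1 was in the first set.

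The rest of the pathway was a list of 35 further genes, of which 34 were in the p16-3MR table. None was called in any of the 4 contrasts there (0% of all genes for GCV in either sex and for the sex difference in response, 0.303% for sex). In females 30 of the 34 had log2 fold changes below 0 after GCV, with a median of -0.61 against 0 over all genes, and 4 had an unadjusted p under 0.05, as did 1603 of all 21755 genes. Rfx5, a subunit of the X box factor, measured 5.40, 7.72 and 5.37 CPM in the female GCV livers and 12.7, 12.6 and 12.2 CPM in the VEH livers, a log2 fold change of -1.05 (SE 0.34, adjusted p = 0.646). Jak2, a kinase of the interferon gamma receptor, had -0.92 (SE 0.41, adjusted p = 0.667) and Cd83, which slows class II turnover, had -1.82 (SE 0.78, adjusted p = 0.667). These 3 were among 6 of the 34 with every GCV liver below every VEH liver, a pattern that 7.35% of all genes had. Among the 4 of the 34 above 0 were Rfxap, another subunit of the X box factor (0.44, SE 0.42), and Cst3, listed under endosomal processing (0.29, SE 0.37).

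Other pathway genes in p16-3MR livers were given by role. Among endosomal proteases, Lgmn had a log2 fold change of -0.79 (SE 0.88) in females and 1.51 (SE 0.89) in males, and Ctsb had 0.86 (SE 0.53) in males. March1, the ubiquitin ligase that removes class II from the surface, had -1.50 (SE 1.14) in females and 1.03 (SE 1.04) in males. Cd274, encoding the inhibitory ligand PD-L1, had -1.84 (SE 0.90) in females and 1.18 (SE 0.84) in males. In males 28 of the 34 were above 0, with a median of 0.45 against 0.04 over all genes, and none had an unadjusted p under 0.05, while 416 of all genes did. For the sex difference in response 29 of the 34 were below 0, with a median of -1.20 against -0.04 over all genes, led among genes with a mean of at least 5 CPM by Cd274 (-3.02, SE 1.23, adjusted p = 0.976).

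In wild-type livers the 9 reported genes had a narrower range of levels over the 12 livers, less clearly so for Ciita. Over the 12 livers H2-Ab1 ran from 16.4 to 42.0 CPM, a 2.56-fold range, against 13.1 to 422 CPM, a 32.1-fold range, in the p16-3MR livers. Cd74 ran 2.47-fold, against 21.3-fold. Ciita ran from 0.575 to 6.41 CPM, against 1.54 to 25.1 CPM, on as few as 2 counts in both tables. Within female GCV livers alone, the SD of log2 CPM was larger in wild-type for H2-Ab1, H2-Eb1, Cd74, Ciita and Ifi30. It was smaller there for H2-Aa, H2-DMa, H2-DMb1 and Cd86. The common dispersion over all genes was 0.0276 in the wild-type table and 0.312 in the p16-3MR table.

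In wild-type females, GCV and VEH livers overlapped for 8 of the 9 genes. H2-Ab1 measured 23.9, 16.4 and 33.9 CPM after GCV (mice 4, 5 and 6) and 28.03, 42.0 and 27.98 CPM after VEH (also numbered 4, 5 and 6), and Cd74 measured 77.5, 71.3 and 122 CPM against 85.3, 160.1 and 119 CPM. Ciita was the gene whose groups were separate, at 1.81, 0.575 and 2.01 CPM against 3.44, 6.41 and 4.47 CPM, a log2 fold change of -1.61 (SE 0.46), and 4.95% of all genes had every GCV liver below every VEH liver. These Ciita levels rest on 2 to 29 counts per liver. The median log2 fold change of the 9 genes was -0.38 against 0 over all genes, and it was -0.11 without VEH mouse 5 and -0.68 without GCV mouse 6. None of the 9 was called (0.00791% of all genes). An unadjusted p under 0.05 was found for 2 of the 9 and 577 of all genes. DESeq2 gave an adjusted p to 5289 of the 12643 genes and called 17 of them, none of the 9. A gene without an adjusted p could not be called, and whether Ciita had one is not given here.

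In wild-type males, all GCV livers were below all VEH livers for H2-Aa, H2-Ab1 and H2-Eb1, as 4.37% of all genes were. H2-Aa measured 27.04, 35.9 and 36.3 CPM (mice 1, 2 and 3) against 39.1, 61.6 and 51.8 CPM, a log2 fold change of -0.62 (SE 0.25). H2-Ab1 measured 19.8, 19.3 and 25.03 CPM against 26.1, 42.0 and 32.7 CPM, a log2 fold change of -0.66 (SE 0.24), and H2-Eb1 measured 27.04, 23.2 and 26.2 CPM against 27.9, 49.2 and 40.0 CPM, a log2 fold change of -0.63 (SE 0.25). Cd74 had -0.42 (SE 0.21), with 64.8, 80.8 and 101.0 CPM against 100.6, 118 and 112 CPM, the groups overlapping by 1 liver on each side. The median over the 9 genes was -0.42 against 0.00 over all genes, and none was called (0% of all genes). An unadjusted p under 0.05 was found for 3 of the 9 and 640 of all genes, and DESeq2 called none of the 9 and 1 of all genes.

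H2-DMa, H2-DMb1, Ifi30 and Cd86 were at 0.61 to 12.2 CPM in the wild-type livers and overlapped between treatments in both sexes. Ciita in males measured 2.52, 4.51 and 2.44 CPM after GCV and 2.40, 2.19 and 2.90 CPM after VEH, where GCV mouse 2 was the highest. The sex difference in response was -1.98 (SE 0.65) for Ciita and above 0 for the other 8 genes, with a median of 0.12. The direction of the median rests on single livers, since it was -0.03 with 3 of 9 genes above 0 without female VEH mouse 4, -0.02 with 4 of 9 above 0 without female GCV mouse 6, and 0.43 without female VEH mouse 5. None of the 9 was called (0.00791% of all genes). An unadjusted p under 0.05 was found for 1 of the 9 and 563 of all genes, and DESeq2 called none of the 9 and 1 of all genes. Between the sexes over both treatments, 8 of the 9 genes were higher in females, with a median of 0.23 against 0.03 over all genes. The median was 0.07 without female VEH mouse 5, 0.14 with 5 of 9 genes higher without female GCV mouse 6, and 0.14 with 6 of 9 higher among VEH livers alone. None of the 9 was called, while 7.94% of all genes were, and none of the 9 and 2535 of all genes had an unadjusted p under 0.05. DESeq2 called none of the 9 and 1039 of the 10678 genes to which it gave an adjusted p.

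**Figure D4:**
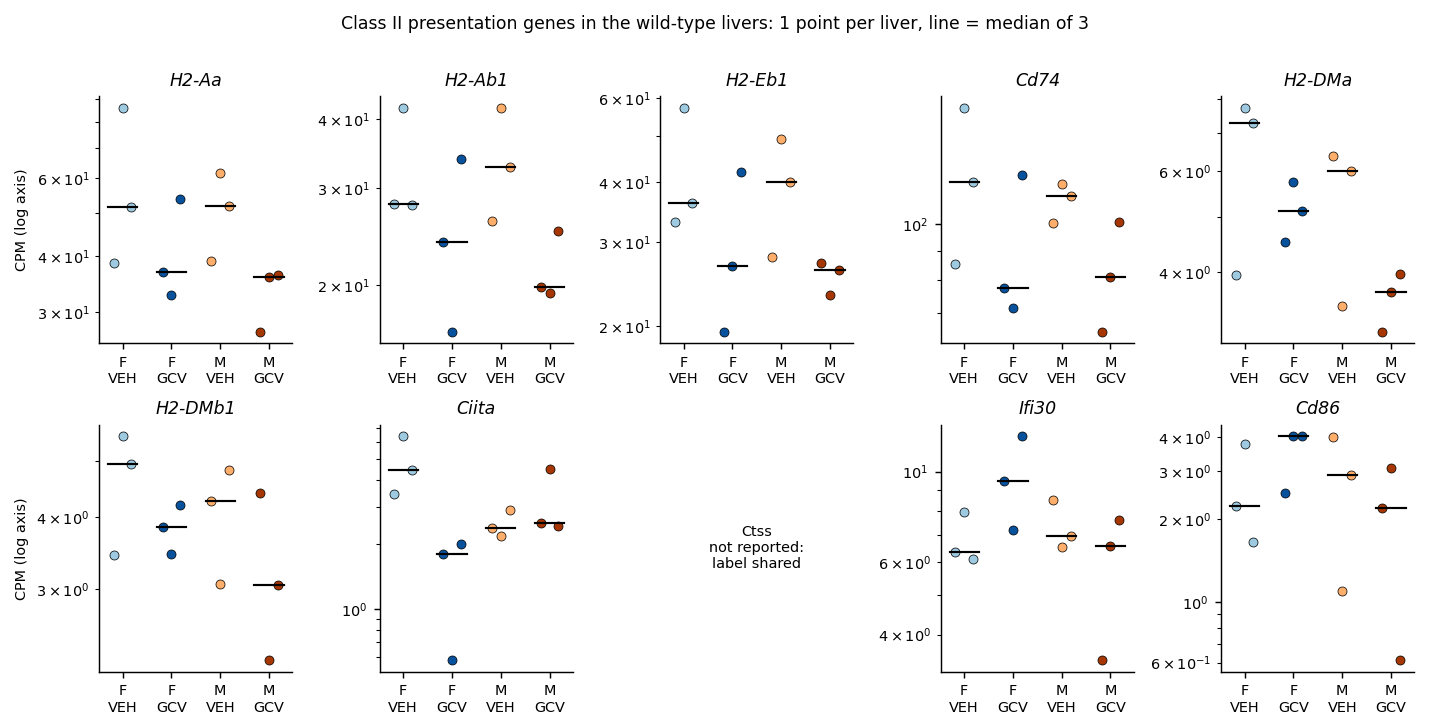
CPM on log axes of the 9 reported class II presentation genes in the wild-type livers, 1 panel per gene with its own axis, 1 point per liver by sex and treatment, with a line at the median of 3. Male GCV points lie below male VEH points for H2-Aa, H2-Ab1 and H2-Eb1, and female GCV points below female VEH points for Ciita.

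**Figure D5:**
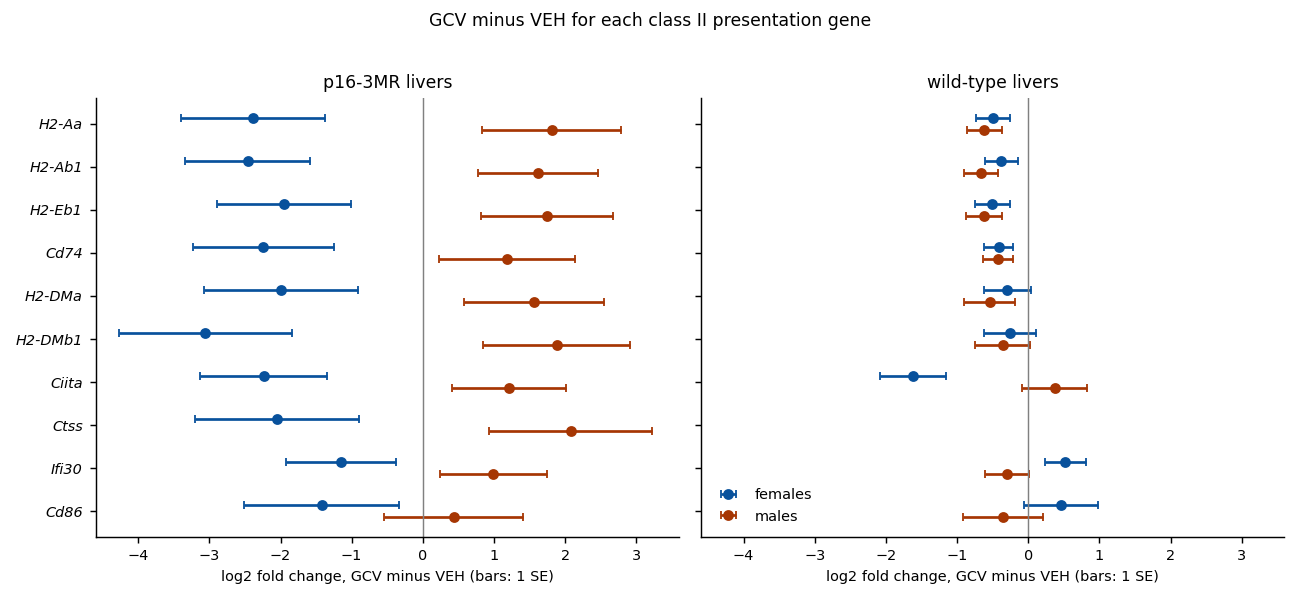
Log2 fold change of GCV minus VEH for each gene (points) with 1 SE (bars), for females and males of the p16-3MR livers, left, and the wild-type livers, right. The p16-3MR values lie below 0 in females and above 0 in males for all 10 genes with wide errors, and the wild-type values lie within 1.61 of 0.

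Pairwise r in the wild-type livers is a description over the narrower range of levels given above. The 6 pairs among H2-Aa, H2-Ab1, H2-Eb1 and Cd74 had r of 0.829 to 0.944 over the 12 livers, while the 36 pairs of all 9 genes had a median of 0.41 and ran down to -0.16 for Ciita with Ifi30. The log2 ratios to H2-Ab1 within a liver had SDs of 0.21 for H2-Aa, 0.25 for H2-Eb1, 0.20 for Cd74, 0.51 for H2-DMa and 0.77 for Ciita, and that of H2-DMb1 to H2-DMa 0.33, so that among these 6 ratios Ciita to H2-Ab1 had the one SD above its p16-3MR value. Ptprc was at 4.15 to 18.6 CPM, and its r with the core was 0.08, against 0.50 for the 3 sinusoidal endothelium markers with a usable label (of 5), 0.21 for the 3 Kupffer cell markers with a usable label (of 6), 0.39 for 5 of 8 B cell markers and 0.33 for 6 of 8 dendritic cell markers. The endothelial markers, the highest of the lists (0.74 with group means subtracted), summed to 55.2 to 76.6 CPM in female GCV livers, 62.3 to 85.2 CPM in female VEH livers, 55.3 to 64.7 CPM in male GCV livers and 52.0 to 58.8 CPM in male VEH livers. Kupffer markers summed to 84.5 to 131 CPM in male GCV livers and 91.3 to 127 CPM in male VEH livers, which overlapped. The undivided male core, at 139 to 189 CPM against 194 to 270 CPM, did not overlap. The male core per CPM of Ptprc was 12.6 to 22.9 against 26.04 to 65.1, which did not overlap either. Its highest value came from VEH mouse 2, where Ptprc was at 4.15 CPM. Per CPM of the Kupffer cell markers the male core was 1.239 to 1.88 against 1.52 to 2.64, which overlapped. In females the core per CPM of Ptprc was 11.6 to 21.2 against 15.2 to 20.8, and per CPM of the Kupffer cell markers 1.16 to 2.07 against 1.74 to 2.24. The part of these cell types in the values was not tested.

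Of the 35 further pathway genes, 21 had a usable label in the wild-type table, and none was called for GCV in either sex (0.00791% of all genes in females and 0% in males) or for the sex difference in response (0.00791%). Between the sexes 3 of the 21 were called, while 7.94% of all genes were. Rfxank, another subunit of the X box factor, was higher in females, at 6.19 to 11.7 CPM against 3.49 to 8.17 CPM (0.83, SE 0.22, adjusted p = 0.0205). March8, a ubiquitin ligase related to March1, was lower in females, at 42.0 to 50.7 CPM against 45.0 to 70.6 CPM (-0.42, SE 0.11, adjusted p = 0.0159). Without male VEH mouse 3 neither Rfxank nor March8 was called, with adjusted p-values of 0.0599 and 0.0546.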

How the data were processed

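The authors trimmed reads with Trim Galore 0.6.10 after FastQC 0.11.9, estimated transcripts with Salmon 1.10.3, aggregated these per gene (tximport) and dropped any gene under 3 reads, and the submitters' processing notes name mm10. The deposited values are estimated counts (expected counts) per gene, stored as whole numbers with no scaling for library size. The p16-3MR table has Ensembl gene IDs, of which 21698 of 21755 have a GENCODE M21 symbol. The wild-type labels lack 9 lower-case letters, so 10496 of 12643 labels were matched to exactly 1 symbol and the other labels were not assigned a gene.

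Each table was fitted alone with edgeR 4.0.16 in R 4.3.3: TMM scaling, 1 mean per group over 12 livers, quasi-likelihood testing and p-values adjusted by Benjamini-Hochberg across the whole table, with calls at an adjusted p under 0.05. Contrasts were GCV minus VEH in each sex, the difference between these, and females minus males. CPM uses TMM-scaled library sizes, and log2 CPM a prior count of 2. Before TMM scaling, a floor of 3 counts was 0.419 to 0.599 CPM in the p16-3MR livers and 0.529 to 0.973 CPM in the wild-type livers, for counting error only. After scaling the floor was higher in female GCV mouse 33 (TMM factor 0.259), where 1 count alone was 0.772 CPM. The tests were first tested on simulated data, in which the p16-3MR fit called few of the changed genes and the wild-type fit most of them, so a gene not called in p16-3MR livers is not shown to be unchanged. Alternatives were DESeq2 1.42.0, its size factors in edgeR, limma-voom (limma 3.58.1), filterByExpr, a fit to 1 sex (6 livers), a looser threshold of 0.1, VEH livers only for sex, a replicate block in wild-type mice, Spearman's rho, and each liver left out.

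The 10 genes, the pathway list and the marker lists were chosen with earlier results of these data known. Beside the 10 genes, the text names pathway genes that were called and up to 3 per contrast and role with the largest log2 fold change at a mean of at least 5 CPM, the 8 genes most like the class II core, and Cd83, H2-Oa, H2-Ob, H2-Eb2 and H2-DMb2, chosen after their values were seen. 1 gene of the pathway list is counted with the list but is not reported here. The labels call each library a biological replicate.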

Additional observations from a re-analysis of the deposited data

How the results depend on the processing

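Of 355 alternative values for the medians and counts, 347 differed from the main value by less than the tolerance, which for a median was the SD between replicates of the genes' mean log2 CPM (times the square root of 2 for the sex difference in response) and for a count a ratio of 1.5. This tolerance is wide and does not cover direction, since the wild-type sex difference in response (median 0.12) counts among them and ran from -0.03 to 0.43 with single livers left out. No call on the 10 genes was made in p16-3MR livers under any alternative run. The number of the 10 with an unadjusted p under 0.05 moved widely, from 0 to 10 for GCV in females and in males. It ran from 2 to 10 for the sex difference in response and from 0 to 9 for females minus males. The p16-3MR female median (-2.14) stayed between -2.50 and -1.19 with single livers left out. The male median (1.59) ran from -0.0070 to 2.74 with single livers left out, the lowest without GCV mouse 32. For females minus males the median of -1.32 became -0.57 by limma-voom with sample quality weights and 0.49 in VEH-treated livers only. In wild-type females the median of -0.38 ran from -0.68 to -0.11 with single livers left out. The number of wild-type pathway genes called between the sexes (3) ran from 1 to 5 with single livers left out and was 5 at an adjusted p under 0.1. Rfxank was not called without female GCV mouse 6, female VEH mouse 5, male GCV mouse 2 or male VEH mouse 3, and March8 was not called without female GCV mouse 4 or male VEH mouse 3. Over the alternatives that average females minus males over both treatments, the adjusted p ran from 0.0116 to 0.0658 for Rfxank and from 0.00272 to 0.0546 for March8. The causes were not tested.

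Wild-type livers of GCV and VEH mice share replicate numbers. The correlation of same-numbered deviations was -0.06, -0.05 and 0.01 in females and 0.25, 0.34 and -0.11 in males. For livers of different numbers it ran from -0.04 to 0.09 in females and from -0.43 to 0.25 in males. With 3 livers per group these values do not settle whether the numbers pair the mice. With a replicate block the number of the 9 genes called for GCV in wild-type males was 1 instead of 0 (H2-Aa, log2 fold change -0.62, adjusted p = 0.0391), the number over all genes went from 0 to 68 in males, 1 to 106 in females and 1 to 79 for the sex difference in response, the medians were -0.39 in females and -0.44 in males, and the block was not fitted for sex. Of the 8 genes most like the class II core, Spearman's rho shared 2 in p16-3MR and 3 in wild-type livers. Depth limits Ciita, H2-DMa, H2-DMb1 and Cd86, which had 1 to 6 counts in their lowest p16-3MR livers.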

Other observations

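Accessory chains of class II that B cells and dendritic cells are known to use had few counts in the p16-3MR livers. H2-Ob had 2 to 31 counts per liver, H2-Oa 0 to 18, H2-Eb2 0 to 15 and H2-DMb2 0 to 50.

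In wild-type livers the genes closest to the class II core over the 12 livers, among 7286 other genes with a mean of at least 5 CPM, were Igkc (r = 0.882), Zmynd11 (0.855), Slc35f5 (0.848), Rpl37a (0.848), Tmem143 (0.811), Gpank1 (0.800), Retreg2 (0.794) and P2ry1 (0.788). Igkc encodes the constant part of the kappa light chain of antibodies. With group means subtracted, the 8 closest were Serpinf1 (0.955), Zmynd11 (0.931), Lamtor2 (0.912), Serpina6 (0.908), Mcrip1 (0.870), Cyb5r3 (0.870), Cyp8b1 (0.867) and Fcgr2b (0.866). Zmynd11 was in both sets.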
